A study of Mus musculus with 9 samples.

Results

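The miR-34 and miR-449 miRNAs are a family of small regulatory RNAs, and their levels were followed in mouse epididymosomes from the caput, corpus and cauda epididymis. Every row of the deposited table named miR-34a-, miR-34b-, miR-34c- or miR-449 was taken as a member, which gave 6 of 358 miRNAs: miR-34a-5p, miR-34b-5p, miR-34b-3p, miR-34c-5p, miR-34c-3p and miR-449a-5p. Epididymosomes are membrane vesicles released into the lumen of the epididymis, the duct in which sperm mature as they pass from caput through corpus to cauda. The vesicles came from untreated Swiss male mice aged 8 weeks. Small RNA was sequenced in 9 libraries, 3 per segment, and each library held RNA pooled from several animals, so the error bars describe pools and not single mice. The vesicles were recovered by density gradient from luminal fluid released through cuts in the tissue, after the vessels had been flushed. Levels are given in CPM: in every library the authors scaled the reads on miRNAs to the same total.

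A miRNA lowers the output of the mRNAs it pairs with, mainly through its seed, the bases 2 to 8 from its 5′ end. The miR-34 and miR-449 genes are grouped because their 5p arms carry closely related seeds. They are known as targets of the tumour suppressor p53, as restraints on the cell cycle, and as miRNAs of the male germ line and of multiciliated epithelia such as the efferent ducts. A hairpin precursor yields a 5p and a 3p mature arm, of which usually one is kept and the other degraded.

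Mature sequences from RefSeq (GRCm38.p6) matched 5 of the 6 members by name, all but miR-34c-5p. The members are shown here because the seed is what defines the family. The seed is in capitals and each sequence runs 5′ to 3′.
miR-34a-5p: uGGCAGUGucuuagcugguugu
miR-34b-5p: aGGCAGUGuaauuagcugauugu
miR-449a-5p: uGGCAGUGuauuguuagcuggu
miR-34b-3p: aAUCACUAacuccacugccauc
miR-34c-3p: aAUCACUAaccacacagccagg

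The 3 printed 5p arms shared the seed GGCAGUG, and no other of the 299 miRNAs of the table with a matched sequence carried it. The 3p arms of miR-34b and miR-34c shared a different seed, AUCACUA, which was likewise found in 2 of the 299. Outside the seed the 5 matched members diverged, and miR-34c-5p was not compared, so its likeness to miR-34b-5p is not given here. miR-34b-3p and miR-34c-3p differed at 5 of 22 positions, counted from 1 at the 5′ end, with miR-34b-3p given first: U11C, C12A, U16A, U21G and C22G. miR-34a-5p and miR-449a-5p had the same base at 15 of 22 positions. The short motifs GGAG and CCCU, which have been described in miRNAs sorted into vesicles, were searched for on the mature strand, from the middle of each sequence to its 3′ end. Neither occurred in the 5 members, against 7 (2.34%) and 8 (2.68%) of the 299 miRNAs.

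The hairpins lie at 3 loci (GRCm38, GENCODE annotation). Mir34b at chr9:51103562-51103645 and Mir34c at chr9:51103034-51103110 stand 451 bases apart on the minus strand, in an intron of Btg4 on the opposite strand. Mir34a lies at chr4:150068454-150068555 on the plus strand, in an exon of the unclassified transcript Gm37795. Mir449a lies at chr13:113037534-113037624 on the plus strand, in an intron of Cdc20b, in the same direction as this gene.

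The libraries held 1548581 to 11306605 reads on miRNAs, with the shallowest among the corpus and cauda libraries, and 3 reads stood for 0.265 to 1.94 CPM. Because CPM are shares, they depend on the dominant miRNAs: miR-10a-5p and miR-10b-5p took at least 50.3% of the reads of every caput and corpus library, up to 71.3%, but at most 34.5% of those of a cauda library. The share of miR-143-3p went the other way, with 4.98% to 8.81% in caput, 8.79% to 12.1% in corpus and 28.7% to 35.2% in cauda libraries. On this scale the table as a whole was shifted upwards, with a median log2 fold change over all tested miRNAs of 0.47 from caput to corpus, 0.18 from corpus to cauda and 0.81 from caput to cauda. With TMM normalization, a scaling set by the bulk of the miRNAs, these medians were -0.09, 0.08 and 0.13. With library sizes taken without the 3 most abundant miRNAs they were 0.18, 0.32 and 0.66. Levels here are shares of a vesicle preparation, in which more vesicles carrying a miRNA and more copies per vesicle cannot be told apart. A pair of libraries stood apart for members of the family, caput replicate 2 for the 5p arms and cauda replicate 3 for the 3p arms, and calls that depend on them are given with and without them.

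Markers of other cells, by miRNA name, moved between the segments too. Over all tested miRNAs 19.0% were called higher from caput to corpus, 14.0% from corpus to cauda and 38.7% from caput to cauda, and the counts of each list are read against these shares. The 19 miRNAs of spermatogenic cells, such as miR-881-3p and miR-470-5p, summed to 188 to 296 CPM in caput, 986 to 1133 CPM in corpus and 1168 to 1895 CPM in cauda libraries. They were called higher for 15 of 15 tested from caput to corpus, 3 of 19 from corpus to cauda and 19 of 19 from caput to cauda, but 6 of them averaged 10 CPM or more in the caput and the others were tested only through the later segments. The 3p arms of miR-465a, miR-465b and miR-465c had nearly the same CPM in every library, so the sums and counts of this list take close to the same values more than once. The 5 striated muscle miRNAs summed to 55.5 to 197 CPM in caput and 1412 to 4166 CPM in cauda libraries, and 1 of them averaged 10 CPM or more outside the cauda, so their 5 calls in both comparisons with the cauda follow in part from the filter. Of 5 smooth muscle miRNAs, led by miR-143-3p, 4 rose from corpus to cauda and 5 from caput to cauda. In these comparisons 3 and 4 of the 5 averaged 10 CPM or more in both segments. Among 5 red blood cell miRNAs 1 of the 3 tested rose from caput to corpus, 3 rose from corpus to cauda and 5 from caput to cauda. Only 3 of these 5 averaged 10 CPM or more in both segments of a comparison with the cauda, so these counts too follow in part from the filter. miR-486a-5p and miR-486b-5p had nearly the same CPM in every library and add little separate information. Of 5 leukocyte miRNAs, 4 of which averaged 10 CPM or more in both segments, 1 rose from corpus to cauda and 3 from caput to cauda. Of 9 epithelial miRNAs 2 rose from caput to corpus and 1 from caput to cauda. In immunoblots of their preparations the authors detected neither haemoglobin nor a protein marker of sperm cytoplasmic droplets. The part of the listed cell types in the levels of the family was not tested.

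miR-34c-5p was by far the most abundant member. Its mean over the 9 libraries was 790 CPM, which ranked 55 of 358 miRNAs, ahead of miR-34a-5p at 96.1 CPM (rank 145), miR-34b-3p at 86.9 CPM (rank 149), miR-34b-5p at 44.5 CPM (rank 194), miR-449a-5p at 27.7 CPM (rank 225) and miR-34c-3p at 15.8 CPM (rank 267). The 6 members summed to 229 to 938 CPM in caput libraries, 532 to 619 CPM in corpus libraries and 1750 to 2093 CPM in cauda libraries, so that every cauda library lay above every other library. miR-34c-5p held 71.6% to 85.0% of this sum in caput, 58.6% to 64.3% in corpus and 68.1% to 81.7% in cauda libraries. The share of miR-34a-5p reached 11.5% to 25.5% in the corpus, against 3.71% to 7.91% in the cauda. In the caput it was 6.30% to 12.9%, which overlapped with the corpus.

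**Figure D1:**
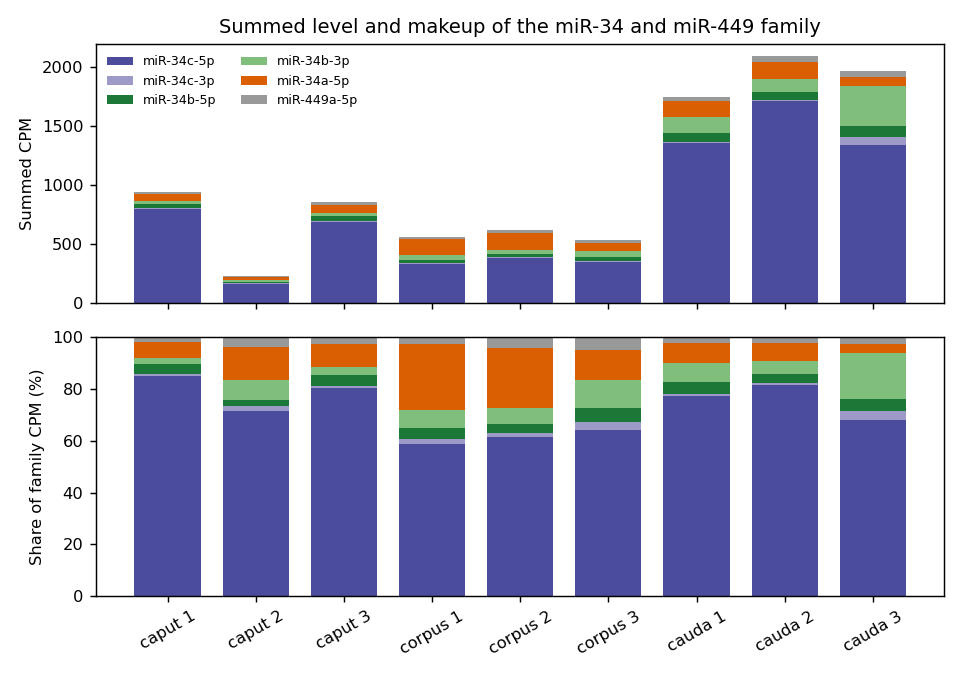
Summed CPM of the 6 family members in each of the 9 libraries (upper panel, bars stacked by member) and the share of each member in that sum in percent (lower panel). The cauda bars reach 1750 to 2093 CPM against 229 to 938 CPM in the caput and 532 to 619 CPM in the corpus, and miR-34c-5p takes the largest share in every library.

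The question of the sampling by segment was how the miRNA cargo of epididymosomes changes along the epididymis. From caput to cauda miR-34b-3p was called higher in the main fit and in all 20 alternative settings. The other members of the miR-34b and miR-34c cluster and miR-449a-5p were called higher in the main fit but not in every setting. In the main fit miR-34a-5p was not called in any comparison. Whether the members changed by different amounts was tested only through the ratio of both 5p arms of the cluster and the ratio of the arms of each of its hairpins. A member was called when limma on log2(CPM + 1) gave an adjusted p under 0.05 (Benjamini-Hochberg over all miRNAs tested) and a fold change of at least 2. Between caput and cauda 5 of 6 members were called higher, against 38.7% of all miRNAs tested. This count was 3 with TMM normalization, 2 with median-of-ratios scaling and 3 without caput replicate 2. It includes miR-34c-3p, which averaged 5.98 CPM in the caput and was tested only through its level in the cauda. Between corpus and cauda 2 of 6 were called higher, against 14.0% of all miRNAs, and between caput and corpus 0 of 6 were called in either direction by limma or limma-voom, against 22.4%, with 2 of 6 at an unadjusted p under 0.05. The members had median log2 fold changes of 1.66, 1.34 and 0.71 in these comparisons. The comparisons share libraries and are not independent of each other.

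**Figure D2:**
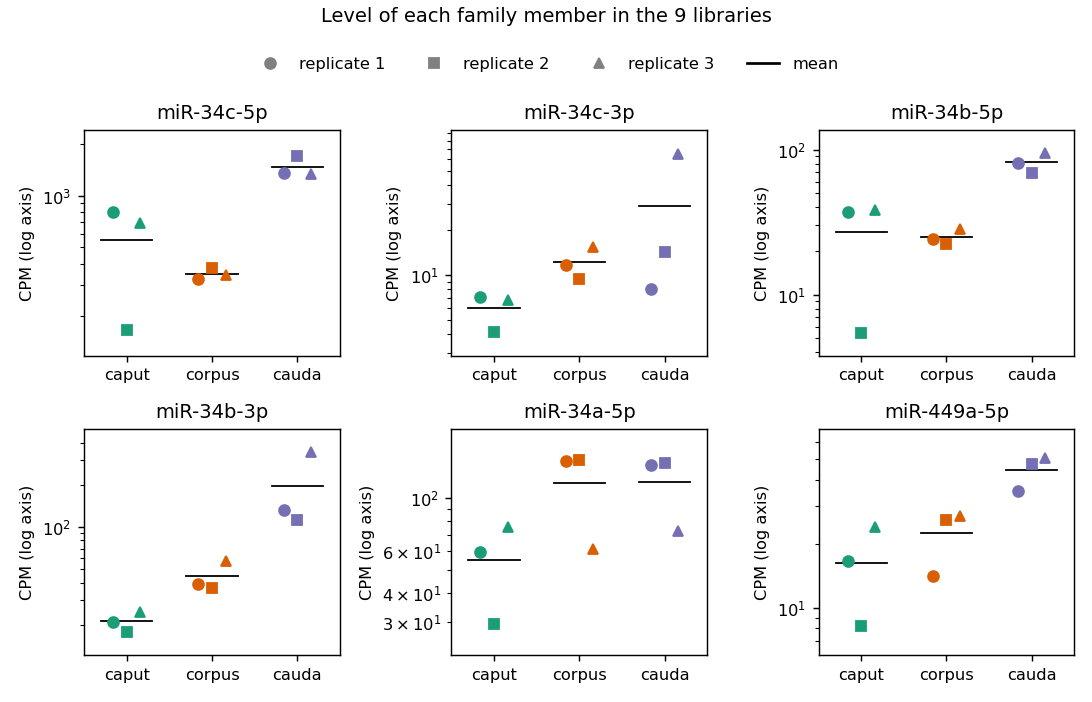
CPM of each member on a log axis in the 3 caput, 3 corpus and 3 cauda libraries, with the replicate given by the marker and the mean as a line. miR-34c-5p and miR-34b-5p fall to 164 and 5.44 CPM in caput replicate 2, and miR-34c-3p and miR-34b-3p reach 65.6 and 343 CPM in cauda replicate 3.

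miR-34c-5p, the main arm of its hairpin and a miRNA known from germ cells and sperm, was at 798, 164 and 689 CPM in the caput libraries (replicates 1, 2 and 3), at 328, 381 and 342 CPM in the corpus and at 1355, 1710 and 1341 CPM in the cauda. In CPM the cauda libraries were all higher than any other, and the corpus values lay inside the range of the caput values. After division by the TMM library factors, caput replicate 1 (factor 0.753) lay above cauda replicate 3 (factor 1.29). The means were 550 ± 339 CPM in the caput, 350 ± 27.3 CPM in the corpus and 1469 ± 209 CPM in the cauda (SD, n = 3 each). From corpus to cauda miR-34c-5p rose 4.17-fold, a log2 fold change of 2.06 (standard error 0.49) for which limma with Benjamini-Hochberg adjustment gave an adjusted p of 0.00753. From caput to cauda it rose 3.25-fold (log2 fold change 1.70, standard error 0.49, limma adjusted p 0.00948). That log2 fold change was 1.02 with TMM normalization and 0.98 with median-of-ratios scaling, where it fell short of the fold of 2. Between caput and corpus the log2 fold change was -0.36, with a 95% interval of -1.40 to 0.68.

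Caput replicate 2 decided how the caput stood against the other segments. In this library miR-34c-5p had 1356 reads, against 9018 and 5828 in the other caput libraries. Without it miR-34c-5p fell from caput to corpus by 1.08 on the log2 scale (limma adjusted p 0.0158 with Benjamini-Hochberg adjustment), and the rise from caput to cauda, at a log2 fold change of 0.98, was just under the fold of 2. The level of miR-34c-5p was highest in the cauda in all 20 alternative settings. The order of caput and corpus depended on the library left out: without caput replicate 1 the log2 fold change from caput to corpus was 0.055.

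miR-34b-5p, from the neighbouring hairpin, was likewise highest in the cauda, at a far lower level. It was at 37.1, 5.44 and 38.1 CPM in the caput, at 24.1, 22.3 and 28.4 CPM in the corpus and at 81.5, 69.1 and 94.8 CPM in the cauda. Again all cauda libraries were above all others, and caput replicate 2 was the lowest of the 9, with 45 reads against 420 and 322 in the other caput libraries. The means were 26.9 ± 18.6, 24.9 ± 3.14 and 81.8 ± 12.8 CPM (SD, n = 3 each). From caput to cauda miR-34b-5p rose 3.86-fold (log2 fold change 1.95, standard error 0.58, limma adjusted p 0.0105). Without caput replicate 2 this log2 fold change was 1.09 (limma adjusted p 0.0194), and without both libraries that stood apart it was 0.98 (adjusted p 0.0514) and the call was lost. From corpus to cauda its log2 fold change was 1.67 (standard error 0.58), and the limma adjusted p of 0.0502 missed the threshold by little. This result passed in 11 of 20 alternative settings, among them TMM normalization (adjusted p 0.0204 by limma) and the fit without caput replicate 2 (0.00253), which lowers the spread shared by all segments. From caput to corpus the log2 fold change was 0.28 with a 95% interval of -0.94 to 1.50, and it was -0.25 with TMM normalization.

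The ratio of both 5p arms of the cluster does not depend on the scaling of a library. miR-34c-5p exceeded miR-34b-5p 21.5-, 30.1- and 18.1-fold in caput libraries, 13.6-, 17.1- and 12.0-fold in corpus libraries and 16.6-, 24.7- and 14.1-fold in cauda libraries. The ratios of the caput were above those of the corpus, and those of the cauda overlapped with both. A difference between the segments was not shown by a test that treats the 9 libraries as unpaired (exact permutation test of the F statistic over all assignments of the libraries to segments, p = 0.132, where 0.00357 is the smallest possible). The 2-sided exact permutation test of caput against corpus gave p = 0.1, the smallest that 3 against 3 allows. In caput replicate 2, where both arms were low, the ratio was at its highest.

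miR-34b-3p is the other arm of the miR-34b hairpin, and it was the member with the largest fold change of the 6 from caput to cauda. It was at 21.0, 17.6 and 24.7 CPM in the caput, at 39.3, 36.4 and 57.5 CPM in the corpus and at 131, 111 and 343 CPM in the cauda. In CPM it increased from segment to segment with no overlap, and caput replicate 2 did not stand out. After division by the TMM library factors, caput replicate 2 lay above corpus replicates 1 and 2, so caput and corpus overlapped. Their factors were 0.478, 1.08 and 1.14. The cauda stayed above both other segments. The means were 21.1 ± 3.54, 44.4 ± 11.4 and 195 ± 129 CPM (SD, n = 3 each). miR-34b-3p rose 7.85-fold from caput to cauda (log2 fold change 2.97, standard error 0.47, limma adjusted p 0.000117) and 3.87-fold from corpus to cauda (log2 fold change 1.95, standard error 0.47, limma adjusted p 0.00769). From caput to corpus its log2 fold change was 1.02, with a limma adjusted p of 0.118, and 0.46 with TMM normalization (0.407). The change from caput to cauda was called in all 20 alternative settings, with log2 fold changes from 2.27 to 3.28.

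miR-34c-3p, the minor arm of its hairpin, was the scarcest member. It was at 7.08, 4.11 and 6.74 CPM in the caput, at 11.6, 9.40 and 15.5 CPM in the corpus and at 8.00, 14.2 and 65.6 CPM in the cauda. In CPM the caput was below both other segments, while corpus and cauda overlapped. After division by the TMM library factors the caput overlapped with both. The value of cauda replicate 3 came from 387 reads, and those of the other cauda libraries from 16 and 31 reads. The means were 5.98 ± 1.63, 12.2 ± 3.09 and 29.3 ± 31.6 CPM (SD, n = 3 each), so against the caput miR-34c-3p was tested only because it passed 10 CPM in the other segment, and its call from caput to cauda supports no count over the family. From caput to cauda it was called 3.05-fold higher (log2 fold change 1.61, standard error 0.60, limma adjusted p 0.0348). Without cauda replicate 3 this log2 fold change was 0.77 (limma adjusted p 0.219), without caput replicate 2 it was 1.40 (adjusted p 0.124), and with TMM normalization 1.00 (adjusted p 0.154). From corpus to cauda the log2 fold change was 0.69 (limma adjusted p 0.462) with all libraries and -0.15 without cauda replicate 3.

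**Figure D3:**
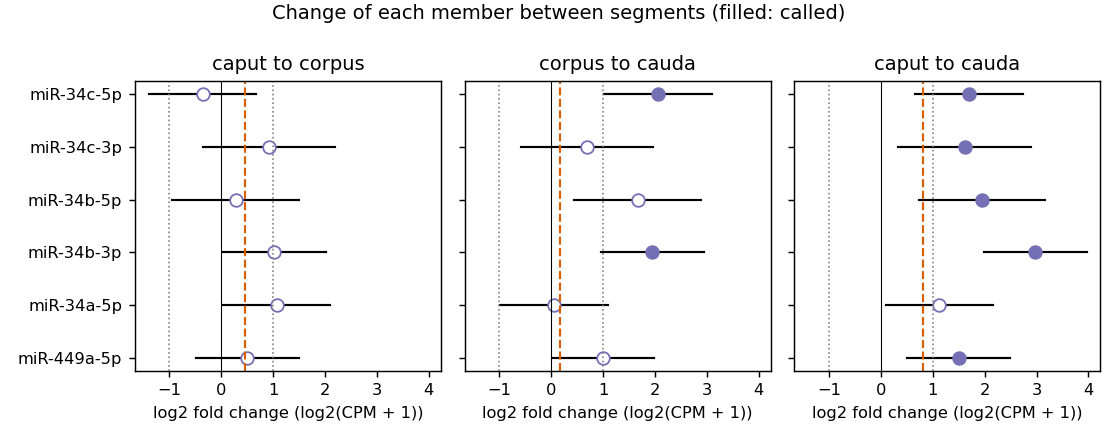
Log2 fold change of each member on the log2(CPM + 1) scale between segments, with 95% intervals as bars, filled points for called members, an orange dashed line at the median of all tested miRNAs (0.47, 0.18 and 0.81) and dotted lines at a fold of 2. From caput to cauda 5 members are called, of which miR-34c-3p was tested only through the cauda, and miR-34b-3p is the farthest from 0, at 2.97. With TMM normalization miR-34b-5p and miR-449a-5p take the opposite sign from caput to corpus, and miR-34a-5p from corpus to cauda.

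Both arms are cut from the same precursor. The scaling of a library cancels from their ratio, apart from the 0.5 CPM added to each arm. For miR-34b the log2 ratios of 5p over 3p were 0.81, -1.61 and 0.61 in caput libraries, -0.69, -0.69 and -1.004 in corpus libraries and -0.68, -0.68 and -1.85 in cauda libraries. The 5p arm was the more abundant one in 2 libraries, caput replicates 1 and 3, and the 3p arm was in the other 7. For miR-34c the 5p arm led throughout, with log2 ratios of 6.72, 5.16 and 6.57 in caput libraries, 4.76, 5.27 and 4.42 in corpus libraries and 7.32, 6.86 and 4.34 in cauda libraries. Values of the caput and cauda were spread over more than those of the corpus.

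By limma, adjusted by Benjamini-Hochberg over the 64 hairpins whose arms each averaged 10 CPM or more, neither ratio was called in any comparison (lowest unadjusted p 0.0674), against 1.56%, 6.25% and 15.6% of hairpins from caput to corpus, corpus to cauda and caput to cauda. The differences in log2 ratio for miR-34b were -0.73 (adjusted p 0.478), -0.27 (0.855) and -1.01 (0.221). For miR-34c they were -1.33 (adjusted p 0.349), 1.36 (0.227) and 0.02 (0.996). These results turned on the pair of libraries that stood apart. Without caput replicate 2 the ratio of miR-34b fell from caput to cauda by 1.78 (limma adjusted p 0.0302). Without cauda replicate 3 the ratio of miR-34c rose from corpus to cauda by 2.28 (limma adjusted p 0.00326). Without both of them, a setting chosen after seeing the data, the ratio of miR-34b fell from caput to corpus (limma adjusted p 0.00926) and from caput to cauda (0.0150). That of miR-34c fell from caput to corpus (limma adjusted p 0.00456) and rose from corpus to cauda (0.000285). The pair stood apart in these same ratios, so leaving it out lowers their spread, and these p-values serve as description only.

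**Figure D4:**
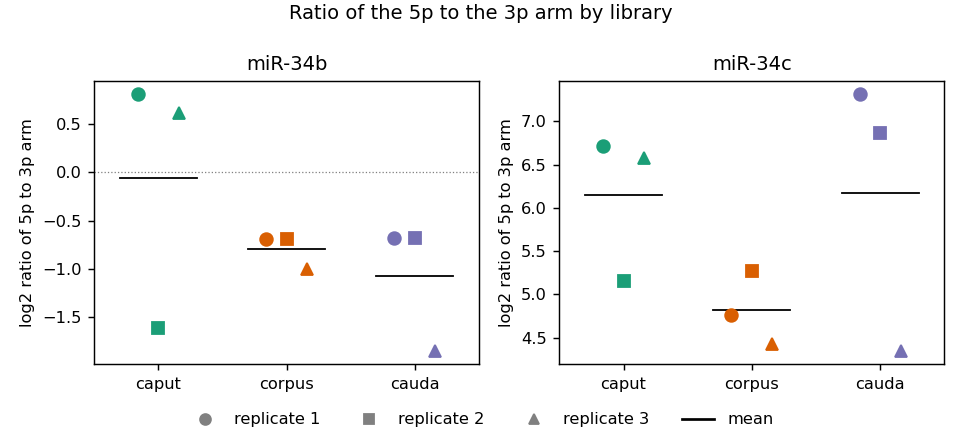
Log2 ratio between the arms (5p over 3p) of miR-34b and miR-34c in each library, with the replicate given by the marker, the mean as a line and 0 (equal arms) dotted for miR-34b. Caput replicate 2 is the lowest caput value for both hairpins (-1.61 and 5.16), and cauda replicate 3 is the lowest cauda value for both (-1.85 and 4.34).

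The deviations of the pair of libraries were among the most extreme of the table for the cluster. In caput replicate 2 miR-34b-5p lay 2.58 below the mean of the other caput libraries on the log2(CPM + 1) scale (difference -2.58), the lowest of all 309 miRNAs that averaged 10 CPM or more. miR-34c-5p, with a difference of -2.17, was above only 1.62% of them, while the median of the 309 was -0.89. The 3p arms were displaced less than the median miRNA, at -0.35 for miR-34b-3p and -0.63 for miR-34c-3p. The arm ratio of miR-34b was the lowest of 64 hairpins in this library (difference -2.32, median -0.32), and that of miR-34c was 5th from the lowest (-1.49).

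In cauda replicate 3 it was the 3p arms that stood out. miR-34c-3p lay 2.51 above the other cauda libraries, higher than 99.4% of the 309 miRNAs, and miR-34b-3p lay 1.50 above them, higher than 94.5%. The 5p arms were near the median of 0.11, at -0.18 for miR-34c-5p and 0.33 for miR-34b-5p. The arm ratio of miR-34c was the lowest of 64 hairpins here (difference -2.75, median -0.15), and that of miR-34b was 12th (-1.17). In both libraries the arms of each hairpin thus shifted towards 3p relative to the other pools of the segment. Caput replicate 2 was also the library with the largest share of reads on miR-10a-5p and miR-10b-5p, 71.3%, and the part of this share in the shift was not tested.

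**Figure D5:**
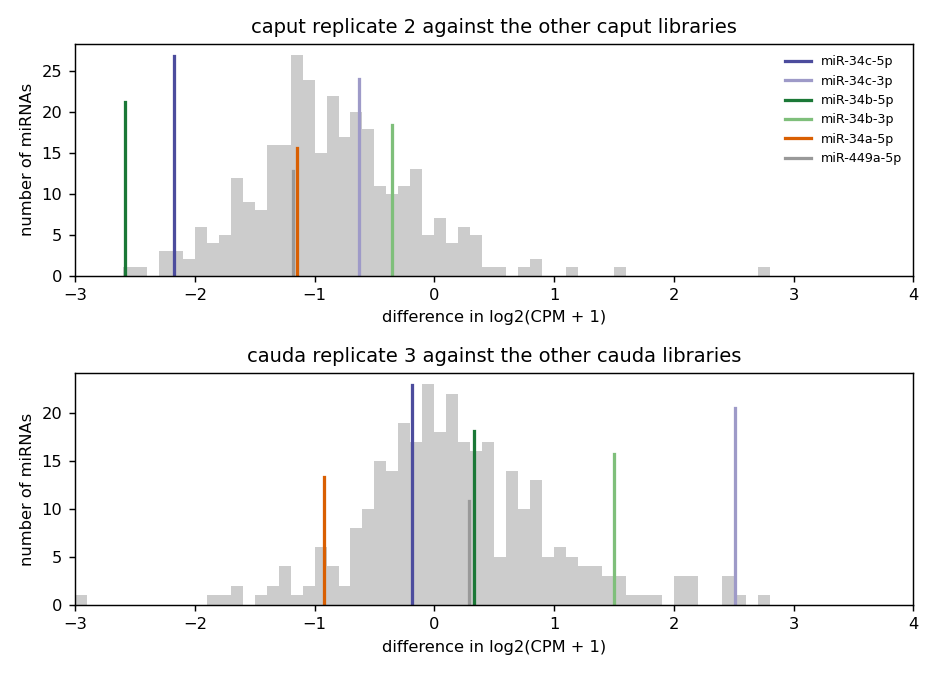
Difference in log2(CPM + 1) of caput replicate 2 (upper panel) and cauda replicate 3 (lower panel) from the mean of the other 2 libraries of the segment, as a histogram over 309 miRNAs with coloured lines for the members, whose height has no meaning. The lines of miR-34b-5p (-2.58) and miR-34c-5p (-2.17) lie at the left edge in the caput, and those of miR-34c-3p (2.51) and miR-34b-3p (1.50) to the right in the cauda.

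miR-34a-5p, made from its own gene on another chromosome, is the member most closely tied to p53. It was at 59.2, 29.6 and 75.5 CPM in the caput, at 143, 144 and 61.3 CPM in the corpus and at 138, 141 and 73.1 CPM in the cauda. In corpus and cauda a pair of libraries lay near 140 CPM and replicate 3 lay within the range of the caput, so all segments overlapped. The means were 54.8 ± 23.2, 116 ± 47.4 and 118 ± 38.5 CPM (SD, n = 3 each). The log2 fold change was 1.07 from caput to corpus (limma adjusted p 0.118), 0.06 from corpus to cauda (95% interval -0.98 to 1.09) and 1.13 from caput to cauda (limma adjusted p 0.0634). Without caput replicate 3 or without cauda replicate 3 the change from caput to cauda passed the test, with limma adjusted p of 0.0284 and 0.0404. Other settings moved it the other way: its log2 fold change was 0.74 without caput replicate 2 (limma adjusted p 0.202), 0.46 with TMM normalization (0.342) and 0.42 with median-of-ratios scaling (0.382). With TMM normalization the log2 fold change from corpus to cauda was -0.04.

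miR-449a-5p, encoded within Cdc20b and known from multiciliated cells and from the testis, was at 16.5, 8.22 and 23.9 CPM in the caput, at 14.1, 25.8 and 27.1 CPM in the corpus and at 35.5, 47.6 and 50.4 CPM in the cauda. The cauda libraries were above all others, and caput and corpus overlapped. The means were 16.2 ± 7.84, 22.3 ± 7.21 and 44.5 ± 7.92 CPM (SD, n = 3 each). From caput to cauda it rose 2.83-fold (log2 fold change 1.50, standard error 0.47, limma adjusted p 0.0150). With TMM normalization the log2 fold change was 0.86, under the fold of 2, at an adjusted p of 0.0348 by limma, and without cauda replicate 2 the adjusted p was 0.0536. From corpus to cauda it was 1.00 (limma adjusted p 0.148). From caput to corpus it was 0.50 (limma adjusted p 0.454), and -0.04 with TMM normalization.

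Counted by separation alone, all cauda libraries were above all caput libraries for 5 of 6 members, against 54.2% of all tested miRNAs whose libraries did not overlap in either direction. Between corpus and cauda this held for 4 of 6 members (46.2% of all), and between caput and corpus for 2 of 6 (34.9% of all), both 3p arms. Both counts against the caput include miR-34c-3p, which averaged 5.98 CPM there and was tested only through the other segment. Its separation therefore supports no count over the family. These separations were counted in CPM and depend in part on the scaling. After division by the TMM library factors, from 0.478 in caput replicate 2 to 1.29 in cauda replicate 3, some members overlap. They are miR-34c-5p and miR-34c-3p between caput and cauda, and both 3p arms between caput and corpus. Set against the median of all miRNAs, the rises from caput to cauda were smaller. They were 2.16 for miR-34b-3p, 1.14 for miR-34b-5p, 0.89 for miR-34c-5p, 0.80 for miR-34c-3p, 0.69 for miR-449a-5p and 0.32 for miR-34a-5p on the log2 scale. With TMM normalization these relative differences were 2.18, 1.18, 0.89, 0.87, 0.73 and 0.33. From caput to corpus miR-34c-5p lay 0.83 below the median of all miRNAs (difference -0.83).

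Over the 9 libraries the members followed each other to different degrees. As a description, Pearson's correlation of log2(CPM + 1) was 0.94 between miR-34b-5p and miR-34c-5p and 0.84 between their 3p arms, but 0.47 between miR-34c-5p and the miR-34c-3p of its own hairpin. It was 0.89 between miR-34b-5p and miR-449a-5p, and 0.20 to 0.56 between miR-34a-5p and the others. These points share the library and its scaling, including caput replicate 2. Among 343 other miRNAs the profile most like that of miR-34c-5p was that of miR-19a-3p, a member of the miR-17-92 cluster, with a correlation of 0.92 and means of 18.5, 22.1 and 113 CPM in caput, corpus and cauda. miR-21a-5p (0.91), miR-128-3p, miR-378a-3p and miR-338-3p (0.90 each) came next. For miR-34b-5p they were miR-21a-5p (0.96), miR-16-5p (0.94), miR-29a-5p (0.93), miR-181a-1-3p and miR-128-3p (0.92 each).

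Other miRNAs described as induced or matured under p53 were counted as a list chosen by name. Of 8 measured members, led by miR-143-3p, miR-16-5p and miR-200c-3p, 1 rose and 1 fell from caput to corpus (22.4% of all miRNAs were called in either direction), 2 rose from corpus to cauda (14.0% of all rose) and 4 rose from caput to cauda (38.7%). Their median log2 fold changes were 0.54, 0.67 and 1.27, beside 0.47, 0.18 and 0.81 for all tested miRNAs. miR-143-3p and miR-145a-5p of this list are also smooth muscle miRNAs, and miR-200c-3p is also an epithelial one.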

How the data were processed

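Small RNA of epididymosomes from 9 libraries was analysed. The authors isolated vesicles on a density gradient, sequenced small RNA on an Illumina HiSeq-2000, assigned reads to known mature miRNAs by the quantifier of miRDeep2 and scaled them for library size; the submitters' processing notes also name CASAVA 1.8.2, Bowtie 1.1.1 and limma, and the methods name edgeR. The genome build and miRBase release were not given in the sources used here. The deposited values are CPM of 358 miRNAs. Library totals were inferred here as those at which all values of a library become whole numbers of reads (tolerance 0.02 reads). A simpler search for 1 common step among the low values did not find them, so read numbers are inferred, and no count model other than limma-voom was run on them. Floors cover counting error only, and the 95% intervals of fold changes come from the limma fit.

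Segments were taken from the labels. The whole table was fitted with limma 3.58 in R 4.3 (lmFit, eBayes with trend) on log2(CPM + 1), with all 9 libraries and the segment as only factor. Benjamini-Hochberg adjustment covered the 321, 342 and 349 miRNAs that averaged 10 CPM or more in a segment compared. Such fold changes understate those of scarce miRNAs. p-values measure the spread between pools. Arm ratios were fitted with limma after adding 0.5 CPM to each arm. The ratio of the cluster's 5p arms was tested by exact permutation. Every member is named, with the 5 miRNAs most correlated with miR-34c-5p and miR-34b-5p and at most 4 of each marker list. The members and lists were chosen with earlier results of these data known. Scripts were tested on simulated data. Alternatives were other scalings, pseudocounts, filters, limma-voom on recovered reads, a replicate block, only the 6 libraries of a comparison and each library left out, and, chosen after seeing the data, caput replicate 2 and cauda replicate 3 both left out. Python 3.11 with numpy 2.4, pandas 2.3 and matplotlib 3.10 served for tables and plots.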

Additional observations from a re-analysis of the deposited data

How the results depend on the processing

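Of 352 recomputed changes of single members, 311 kept their direction and their side of the threshold, 12 lost and 16 gained a call and 13 changed sign. With TMM normalization the log2 fold change from caput to corpus was -0.25 for miR-34b-5p and -0.039 for miR-449a-5p, that of miR-34a-5p from corpus to cauda was -0.041, and 3 members were called from caput to cauda. With median-of-ratios scaling the values were -0.20 for miR-34b-5p from caput to corpus, -0.14 for miR-34a-5p from corpus to cauda and 2 members from caput to cauda. Library size without the 3 most abundant miRNAs gave 4 members from corpus to cauda. A filter of 50 CPM gave 3 members and 95 miRNAs from caput to cauda, where fewer miRNAs were tested. An arm pseudocount of 0.1 CPM gave -0.031 for miR-34c from caput to cauda.

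With caput replicate 2 and cauda replicate 3 both left out, 1 member was called from caput to corpus (miR-34c-5p) and 2 from caput to cauda. miR-34b-5p then changed by -0.58 from caput to corpus and miR-34c-3p by -0.15 from corpus to cauda. The arm ratio of miR-34b changed by -1.51 from caput to corpus, 0.12 from corpus to cauda and -1.39 from caput to cauda, and that of miR-34c by -1.83 from caput to corpus and 2.28 from corpus to cauda.

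With each library left out in turn, 0 to 1 members and 46 to 102 miRNAs were called from caput to corpus, 32 to 83 miRNAs from corpus to cauda (32 without corpus replicate 2) and 3 to 6 members from caput to cauda. The log2 fold change was -0.58 to 0.72 for miR-34b-5p and -1.08 to 0.055 for miR-34c-5p from caput to corpus, and -0.35 to 0.37 for miR-34a-5p and -0.15 to 1.30 for miR-34c-3p from corpus to cauda. The arm ratio of miR-34b changed by -0.47 to 0.12 from corpus to cauda and by -1.78 to -0.57 from caput to cauda, and that of miR-34c by 0.79 to 2.28 and by -0.55 to 0.94. The causes were not tested.

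With the replicate block 0, 3 and 5 members and 83, 73 and 180 miRNAs were called, against 72, 65 and 171 without it. The added member was miR-34b-5p from corpus to cauda (limma adjusted p 0.0223). Correlations of same-numbered libraries ran from -0.21 to 0.41 and were not all over 0.1. In 10 of 18 cases a library correlated best with its own number among the 3 libraries of another segment. These values do not settle whether the number is a pairing, and the main fit did not use it. With the replicate block, chosen after seeing the data, the ratio of miR-34c-5p to miR-34b-5p, which had the order caput, cauda, corpus from high to low for every number, gave p = 0.0278 (exact permutation within numbers, the smallest it can give). limma-voom called 0, 2 and 5 members. The planned edgeR and DESeq2 alternatives were not run. Depth limits miR-34c-3p most, with 16 reads in cauda replicate 1.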
